A study of Mus musculus with 15 samples.

Results

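Neurexins, neuroligins and leucine-rich repeat transmembrane neuronal proteins (LRRTMs) are synaptic adhesion molecules, and 9 of their genes were followed here in mouse hemibrain across 3 diets. The genes were Nrxn2 and Nrxn3, Nlgn1, Nlgn2 and Nlgn3, and Lrrtm1, Lrrtm2, Lrrtm3 and Lrrtm4. Members were chosen by name, with earlier results of these data known. Every probe whose RefSeq identifier in the scanner files belongs to 1 of these symbols was taken. This gave 19 of the 55681 probes on the array. Of these, 18 were measured, meaning well above background in the hemibrain channel on at least 5 of 15 arrays, beside 26348 measured probes in all. The probe left out, A_55_P1961002 for Nlgn3, was not well above background on any array.

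Neurexins sit on the presynaptic membrane and act as receptors that reach across the synaptic cleft. Neuroligins and LRRTMs are their postsynaptic ligands, and each pairing helps recruit receptors and scaffold proteins to a forming synapse. Neurexin genes use several promoters, giving long alpha and shorter beta forms, and are heavily spliced, so that probes for different parts of 1 neurexin gene need not report the same transcripts.

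The study fed male C57BL/6j mice 1 of 3 diets of equal calories for 24 weeks, starting at 3 weeks of age. The n-3 enriched diet (ERD) held n-3 and n-6 polyunsaturated fatty acids at 7 to 1, the balanced diet (BLD) at 1 to 1 and the standard laboratory diet (STD) at 1 to 6. RNA of the left hemibrain, which is 1 side of the brain with its regions and cell types mixed, was labelled with Cy5 and hybridised against a commercial reference RNA pooled from 11 mouse cell lines, labelled with Cy3. There were 5 arrays per diet, all with the same dye orientation, so a dye effect stays in every level against the reference. The scanner software's Cy5 scaling factor ran from 10.59 to 19.40 in ERD, 8.88 to 10.55 in BLD and 10.21 to 15.26 in STD. Whether a dye effect is equal across the diets was not tested. Group labels were taken from the diet field, since all 15 titles carry the word control. Each title has its own identifier, but no label says that each array is a separate animal, and p-values then measure only the spread between these samples.

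The arrays were not of equal quality. Between 29.9% and 53.9% of spots were well above background in Cy5, lowest on ERD array 1, which also had the lowest median correlation with the other arrays (r = 0.88). The 3 arrays least like the others were ERD 1, BLD 3 and ERD 4. The hybridisations were spread over 8 slides and scanned on 2 days, and of the 4 arrays scanned on the later day 3 were BLD, 1 was ERD and 0 were STD. The number of arrays limits the precision: the median standard error of a member's change between ERD and STD was 0.24 on the log2 scale.

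Against the standard diet, the enriched diet gave lower log2 ratios for most of these genes, and 1 probe passed the test. That probe was Lrrtm4 A_52_P424206, which fell by 0.60 on the log2 scale, a call that was lost with slide or scan day as a fixed block and kept with slide as a random block. It is 1 of 18 measured probes called at an adjusted p under 0.05 (limma, Benjamini-Hochberg over all 26348 probes), where 0.209% of all probes were called in either direction and 0.11% lower. In the same comparison 14 of 18 probes lay below 0, against 48.3% of all probes, with a median of -0.31 against 0.01 over all probes. Taking the brightest probe of each gene, 9 of 9 genes lay below 0, with a median of -0.41. That count was 7 of 9 with the scanner software's processed ratios, with the Cy5 channel alone, with the share of spots above background as a covariate, and without the 3 least correlated arrays. At an unadjusted p under 0.05 there were 7 member probes, all lower, where 14.5% of all probes reached that level and 7.74% did so on the lower side. The member counts that involve ERD, here and below, include Nrxn3 A_55_P2105403. That probe was not well above background on any ERD array and passed the filter only through the other diets.

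Between the balanced and the standard diet the members lay on both sides of 0. For BLD against STD, 0 of 18 member probes were called by limma, where 0.00759% of all probes were called, and 3 reached an unadjusted p under 0.05 (10.3% of all probes), 2 lower and 1 higher. Below 0 lay 8 of 18 members beside 40.1% of all probes, and 0 members had diets that did not overlap beside 2.79% of all probes. The median change was 0.02, beside 0.05 over all probes. This direction differed between processing settings. With normexp offset 1, 14 of 18 lay below 0 (median -0.25), and with no background subtraction 13 did (-0.18). The count was 15 with the processed ratios (-0.29) and 12 with Cy5 alone (-0.10). For ERD against BLD, 0 members were called and 0% of all probes, 6 members reached an unadjusted p under 0.05, all lower (10.6% of all probes, 8.04% lower), and 16 of 18 lay below 0 (58.7% of all probes). The members' median was -0.24 beside -0.04 over all probes. That median came to -0.017 with the processed ratios and -0.0090 with Cy5 alone. Centring each array on its median in place of loess moved the median of all probes itself, to 0.18 for BLD against STD and -0.20 for ERD against BLD, while the members' medians were then 0.08 and -0.37. A joint F test over the 3 diets called 0 of 18 members, where 0.0455% of all probes were called, and 7 members had an unadjusted F-test p under 0.05 beside 13.3% of all probes.

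**Figure D1:**
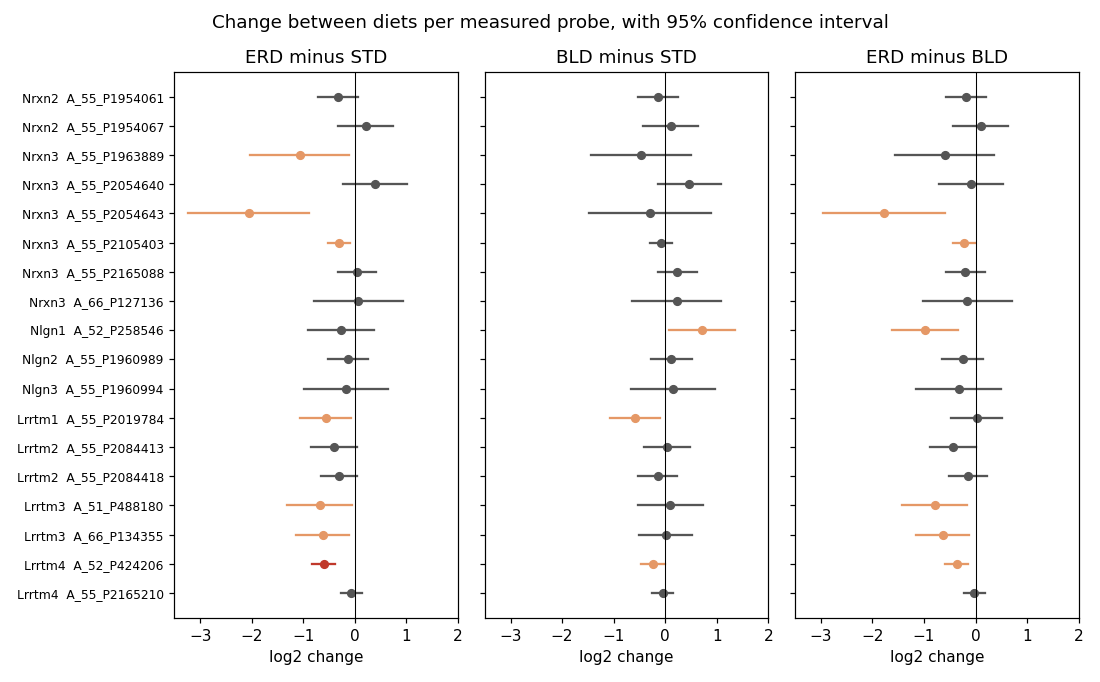
Log2 change between diets for each of the 18 measured probes (points) with its 95% confidence interval (bars), in 3 panels for ERD minus STD, BLD minus STD and ERD minus BLD. Red marks an adjusted p under 0.05, which only Lrrtm4 A_52_P424206 reached at -0.60 in ERD minus STD, orange marks an unadjusted p under 0.05, and grey marks the rest.

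Nrxn2 encodes the second neurexin and is expressed with its own alpha and beta forms. Probe A_55_P1954061 read log2 ratios of 4.28, 4.39, 4.85, 4.43 and 4.63 in ERD, 4.79, 4.97, 4.39, 4.997 and 4.34 in BLD, and 5.41, 4.73, 4.91, 4.73 and 4.44 in STD. The diets overlapped, and both channels were well above background on all 15 arrays. Its change for ERD against STD was -0.33 ± 0.18 (SE, n = 5 and 5, limma adjusted p = 0.423). The other probe, A_55_P1954067, leaned the opposite way at 0.21 ± 0.25 (limma adjusted p = 0.725). The per-array difference between both probes was not distinguishable between ERD and STD (exact permutation test, 2-sided, p = 0.0635, adjusted p = 0.156).

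Nrxn3 had the largest log2 change among the members for ERD against STD in the main fit, at 1 of its 6 probes, A_55_P2054643. This rank depends on the offset. With normexp offset 1 that probe gave -1.90 and Lrrtm4 A_52_P424206 -1.89, and with the processed ratios -1.69 and -2.29. The 6 Nrxn3 probes are assigned in the files to 3 RefSeq transcripts: A_55_P2054643, A_55_P2105403 and A_66_P127136 to NM_001198587, A_55_P1963889 and A_55_P2054640 to NM_172544, and A_55_P2165088 to NM_001252074. RefSeq places 3 Nrxn3 start windows far apart on chromosome 12 of build GRCm38.p6, shown here because probes of this gene gave different readings, and each window runs from 250 bases before to 50 bases after a start. Capitals mark GGGCGG, the core of a GC box, searched on both strands and held by 35.7% of 32851 such windows.
Nrxn3 start 1, chr12:88794254-88794553, + strand: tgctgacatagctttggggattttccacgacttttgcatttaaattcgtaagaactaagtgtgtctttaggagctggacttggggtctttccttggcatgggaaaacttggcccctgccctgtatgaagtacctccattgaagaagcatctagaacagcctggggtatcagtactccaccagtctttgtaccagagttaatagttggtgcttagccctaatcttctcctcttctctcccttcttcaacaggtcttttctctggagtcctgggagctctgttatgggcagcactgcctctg
Nrxn3 start 2, chr12:88953140-88953439, + strand: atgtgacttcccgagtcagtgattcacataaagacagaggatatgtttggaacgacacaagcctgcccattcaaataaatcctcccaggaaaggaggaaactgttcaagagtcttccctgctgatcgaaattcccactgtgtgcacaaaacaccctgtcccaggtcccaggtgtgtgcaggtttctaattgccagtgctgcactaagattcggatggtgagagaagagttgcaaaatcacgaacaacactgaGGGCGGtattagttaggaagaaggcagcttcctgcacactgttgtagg
Nrxn3 start 3, chr12:89812233-89812532, + strand: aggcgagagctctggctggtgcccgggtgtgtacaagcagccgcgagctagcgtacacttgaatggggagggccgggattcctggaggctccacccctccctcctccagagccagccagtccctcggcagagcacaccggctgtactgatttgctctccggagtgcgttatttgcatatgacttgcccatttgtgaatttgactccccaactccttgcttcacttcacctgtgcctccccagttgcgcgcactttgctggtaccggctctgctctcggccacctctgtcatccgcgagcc
The third window is the richest in CpG, with 16 CpG and 60.7% GC, against 2 CpG and 47.3% GC in the first and 6 CpG and 47.7% GC in the second. The median over all windows was 7 CpG and 52.7% GC. The second window holds 1 GC box match and the other two hold none. The CRE half-site, spelled CGTCA, was searched on both strands, and none of the 3 windows holds it, against 20.8% of all windows. The TATA box, spelled TATAAA and searched likewise, is also in none of them, against 13.6% of all windows. The same holds for the E-box, spelled CACGTG and present in 7.15% of all windows. Probe positions are not used here, so no probe is tied to a start.

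The brightest Nrxn3 probe, A_55_P2054643, read 0.55, 3.37, 4.32, 3.63 and 4.66 in ERD. It read 5.89, 4.56, 4.89, 4.92 and 5.12 in BLD, and 5.61, 5.07, 5.54, 5.17 and 5.46 in STD. Every ERD array lay below every STD array, BLD overlapped both, and ERD array 1 lay far below the other 4. Non-overlapping arrays were seen for 4 of the 18 member probes in this comparison, all lower, where 3.76% of all probes did not overlap and 1.91% were lower. The 4 include A_55_P2105403, which was well above background on 0 of 5 ERD arrays. In the ratios as deposited, ERD and STD overlapped for A_55_P2054643, A_55_P2105403 and Lrrtm3 A_66_P134355 of the 4. There they did not overlap for Lrrtm4 A_52_P424206, nor for Nrxn3 A_55_P1963889, which overlapped in the main fit. The change of A_55_P2054643 for ERD against STD was -2.06 ± 0.56 (SE, n = 5 and 5), 4.18-fold lower, with an unadjusted limma p of 0.00198 and an adjusted p of 0.13, so it did not pass. Without ERD array 1, the array with the fewest spots above background, it was -1.37 with a limma adjusted p of 0.0595. With Cy5 alone it was -1.45, and the reference channel alone moved by -0.12. Within the 3 slides that held both diets the differences were -1.69, -1.29 and -0.50. With slide as a fixed block the change was -1.44 (limma adjusted p = 0.569), and with the processed ratios it was -1.69 (limma adjusted p = 0.182). Against BLD the change was -1.77 (limma unadjusted p = 0.00589, adjusted p = 0.339), while BLD and STD differed by -0.29.

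The other Nrxn3 probes gave smaller or opposite readings. A_55_P1963889 had diet means of 1.63 ± 0.66 in ERD, 2.23 ± 1.06 in BLD and 2.71 ± 0.63 in STD (SD, n = 5), and a change of -1.07 for ERD against STD (limma unadjusted p = 0.0318, adjusted p = 0.3). A_55_P2054640, for the same transcript, read 1.54 ± 0.65, 1.63 ± 0.46 and 1.15 ± 0.38 (SD, n = 5), so that ERD against STD was 0.39 with a 95% confidence interval of -0.23 to 1.00. A_66_P127136 and A_55_P2165088 were close to 0, at 0.07 and 0.04 for ERD against STD, but the interval of the former ran from -0.79 to 0.92.

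The dimmest Nrxn3 probe, A_55_P2105403, was well above background on 0 of 5 ERD arrays, 3 of 5 BLD arrays and 5 of 5 STD arrays. Its ratios lay between -0.04 and 0.20 in ERD, 0.11 and 0.49 in BLD, and 0.26 and 0.52 in STD, with no overlap of ERD and STD. The probe passed the filter only through BLD and STD arrays, so this lack of overlap is not read as evidence of a change. Since ERD has only a bound, STD was at least 1.24-fold higher and BLD at least 1.14-fold higher, taking for each ERD array the higher of the probe's own Cy5 signal and the lowest signal among probes well above background. The fit gave limma adjusted p-values of 0.185 and 0.456. These folds compare the Cy5 channel after loess and Aquantile scaling and are open to dye bias. With Cy5 alone, quantile-normalised, the measured log2 differences were smaller, -0.22 for ERD against STD and -0.10 for ERD against BLD, so the folds bound nothing beyond the scaling they were computed on.

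**Figure D2:**
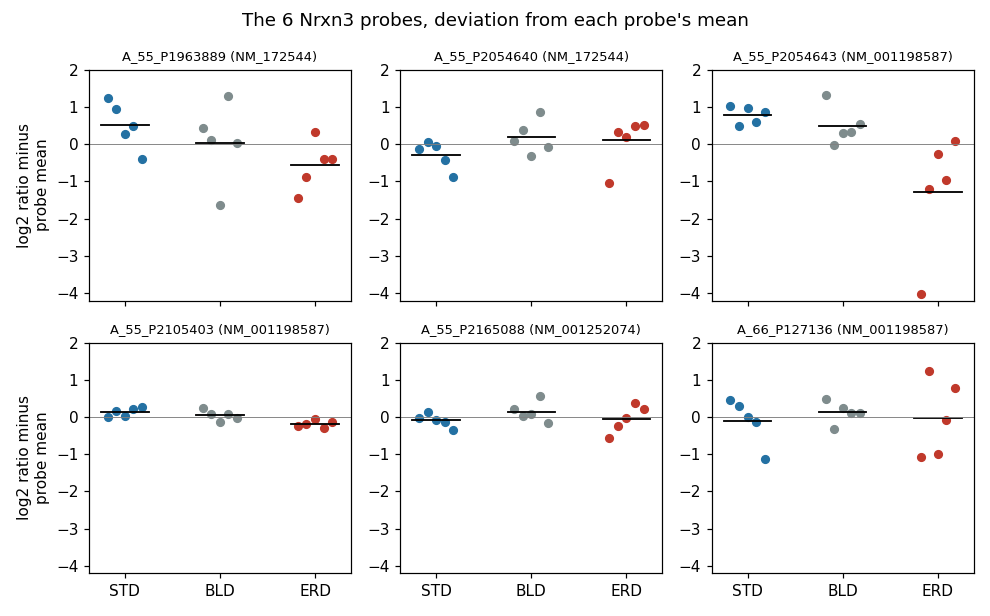
Log2 ratio minus the probe's own mean for the 6 Nrxn3 probes, 1 point per array and a bar at each diet mean, with the RefSeq transcript in each panel title. A_55_P2054643 spreads from ERD array 1 at the bottom to BLD array 1 at the top, with a change of -2.06 for ERD against STD. A_66_P127136, named for the same transcript, has overlapping diets.

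Probes of a gene were compared by the per-array difference between the brightest probe and each other probe, between diets, in 27 exact permutation tests (9 pairs, 3 comparisons). Of these, 10 had a 2-sided p under 0.05 and 5 an adjusted p of 0.0429, the lowest reached. Their unadjusted p of 0.00794 is the smallest that 252 splits of 5 against 5 arrays can give. The 5 were Nrxn3 A_55_P2054643 against A_55_P2054640, A_55_P2105403 and A_55_P2165088 for ERD against STD, and the Lrrtm4 pair for ERD against STD and ERD against BLD. Of these, A_55_P2105403 has only a bound in ERD and the second Lrrtm4 probe was above background on few arrays, so these 3 of the 5 differences say nothing on whether the probes disagree. For the other 2, the brightest Nrxn3 probe differed by -2.45 from A_55_P2054640 and by -2.10 from A_55_P2165088 in its log2 change between STD and ERD. Paired probes of a gene differed in sign in 10 of 27 comparisons. With the deposited ratios, 3 of the 27 had a p under 0.05 and the smallest adjusted p was 0.321. A dim probe is also compressed by the offset added before the logarithm, so unequal log2 changes of a bright and a dim probe do not show unequal change of their RNA.

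Nlgn1, the neuroligin found mainly at excitatory synapses, was highest on the balanced diet. Its single probe, A_52_P258546, read 1.00, 2.02, 1.06, 1.92 and 2.53 in ERD. BLD arrays read 2.05, 2.30, 2.73, 3.25 and 3.13, and STD arrays 1.94, 2.33, 2.08, 2.13 and 1.39. The 3 diets overlapped, with 3 BLD arrays above every other array. BLD against STD was 0.72 ± 0.30 (SE, n = 5 and 5, limma unadjusted p = 0.0305, adjusted p = 0.465), ERD against BLD was -0.98 ± 0.30 (unadjusted p = 0.00492, adjusted p = 0.327), and ERD against STD was -0.27 ± 0.30 (adjusted p = 0.702). None passed. The reference channel was not well above background on any of 15 arrays for this probe, so its ratio gives only a lower bound on the level against the pool. With Cy5 alone the BLD against STD change was 0.25, and with the processed ratios it was -0.14, the opposite sign.

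Nlgn2, the neuroligin of inhibitory synapses, had overlapping diets. Probe A_55_P1960989 read 1.64 ± 0.34 in ERD, 1.89 ± 0.29 in BLD and 1.77 ± 0.28 in STD (SD, n = 5), with both channels well above background on all 15 arrays. ERD against STD was -0.13, and its 95% confidence interval of -0.52 to 0.26 bounds the difference that these arrays leave possible (limma adjusted p = 0.773).

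Nlgn3, found at both kinds of synapse, had 1 measured probe, A_55_P1960994. It read 1.06, 3.41, 2.27, 2.13 and 1.70 in ERD, 1.61, 2.40, 2.42, 3.40 and 2.37 in BLD, and 2.91, 2.42, 2.39, 2.07 and 1.61 in STD. The ERD arrays spanned both the lowest and the highest reading. ERD against STD was -0.17 with a 95% confidence interval of -0.99 to 0.65 (limma adjusted p = 0.869). The 3 neuroligin probes all lay below 0 for ERD against STD, with a median of -0.17, but the median was 0.02 with Cy5 alone, 0.01 with the background covariate and 0.01 without the 3 least correlated arrays.

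The LRRTM probes all leaned one way on the enriched diet. All 7 measured LRRTM probes, from 4 genes, lay below 0 for ERD against STD, with a median of -0.57. Over all probes 48.3% lay below 0, and probes of 1 gene are not independent. At an unadjusted limma p under 0.05 there were 4 LRRTM probes, all lower. That level was reached by 14.5% of all probes, and by 7.74% on the lower side. The 8 neurexin probes split 4 to 4 with a median of -0.14. The LRRTM median kept its sign with normexp offset 1 (-0.59), with no background subtraction (-0.56), with median centring (-0.40) and with Cy5 alone (-0.21), each with 7 of 7 below 0. With the processed ratios it was -0.82, with 6 of 7 below 0. For ERD against BLD 6 of 7 lay below 0 with a median of -0.37, but with Cy5 alone 3 of 7 did and the median was 0.04.

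Lrrtm4, a postsynaptic ligand of heparan sulphate proteoglycans and neurexins, gave the only call. Its 2 RefSeq start windows on chromosome 6 (GRCm38.p6, 250 bases before to 50 after each start) are shown because the called gene is theirs. Capitals mark TATAAA read on either strand.
Lrrtm4 start 1, chr6:80018627-80018926, + strand: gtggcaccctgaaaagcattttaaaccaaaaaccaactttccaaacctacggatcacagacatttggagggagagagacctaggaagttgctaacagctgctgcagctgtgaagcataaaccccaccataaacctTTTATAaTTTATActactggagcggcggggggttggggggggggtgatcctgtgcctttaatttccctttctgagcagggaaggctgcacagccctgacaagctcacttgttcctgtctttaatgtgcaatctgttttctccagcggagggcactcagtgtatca
Lrrtm4 start 2, chr6:80019393-80019692, + strand: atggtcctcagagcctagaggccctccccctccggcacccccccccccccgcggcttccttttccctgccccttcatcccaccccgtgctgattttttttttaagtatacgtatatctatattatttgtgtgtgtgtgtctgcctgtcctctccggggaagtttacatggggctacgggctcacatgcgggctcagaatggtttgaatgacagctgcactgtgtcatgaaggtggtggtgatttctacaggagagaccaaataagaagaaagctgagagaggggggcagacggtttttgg
The first window holds 2 TATAAA matches, both on the opposite strand, beside 13.6% of all windows with at least 1, and the second holds none. Neither holds a GC box, CRE half-site or E-box match by the letters given above. GC content was 48.7% with 4 CpG in the first and 53.3% with 9 CpG in the second. Of the 9 genes, 6 had windows in the table used, 10 starts in all. Among the others, Nlgn2 had the highest GC content (68.7%), with 26 CpG, 3 GC box matches and 1 CRE half-site match.

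Probe A_52_P424206 of Lrrtm4 read 0.17, 0.42, 0.28, 0.26 and 0.37 in ERD. It read 0.54, 0.49, 0.74, 0.92 and 0.65 in BLD, and 0.90, 1.02, 0.83, 0.71 and 1.07 in STD. All 5 ERD arrays lay below all BLD and STD arrays, and BLD and STD overlapped. ERD against STD fell by 0.60 ± 0.11 (SE, n = 5 and 5), 1.52-fold, with an unadjusted limma p of 4.06e-05 and an adjusted p of 0.0435. With slide as a fixed block the change was -0.51 (limma adjusted p = 0.466), and with slide as a random block -0.59 (adjusted p = 0.0238). Blocking on the day of scanning gave -0.61, for which limma's adjusted p was 0.0649. BLD against STD was -0.24 (adjusted p = 0.478) and ERD against BLD was -0.37 (adjusted p = 0.31). In ERD against BLD this was the only member whose arrays did not overlap, beside 1.4% of all probes and 1.08% lower. The F test over diets gave an adjusted p of 0.0844.

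The Lrrtm4 signal was dim. In Cy5 the probe was well above background on 3 of 5 ERD, 4 of 5 BLD and 5 of 5 STD arrays, and in the reference channel on 0 of 15. With Cy5 alone ERD against STD was -0.33 (limma adjusted p = 0.083), BLD against STD was -0.27 and ERD against BLD was -0.06, while the reference channel alone gave 0.20 for ERD against STD. In the ratios as deposited, without the offset, the probe read 1.14, 4.25, 2.88, 1.26 and 3.65 in ERD, 1.82, 2.97, 3.95, 4.73 and 4.39 in BLD, and 5.42, 5.43, 4.83, 4.59 and 4.36 in STD. ERD and STD did not overlap there either, ERD and BLD did, and the change was -2.29 with an adjusted p of 0.102. Over every setting that used the hemibrain channel the size ranged from -0.33 to -2.29. Within the 3 slides holding both diets the differences were -0.60, -0.61 and -0.33. The call was lost on leaving out ERD 1, ERD 2, ERD 4, BLD 2, BLD 4, BLD 5 or any of the 5 STD arrays, 11 of 15 in all, with limma adjusted p-values from 0.0512 to 0.139 and changes from -0.56 to -0.65. The mean of both Lrrtm4 probes gave -0.34 (limma adjusted p = 0.121).

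The second Lrrtm4 probe, A_55_P2165210, was dimmer still, well above background on 1, 2 and 3 of 5 arrays in ERD, BLD and STD. Its ratios were 0.10 ± 0.05, 0.12 ± 0.14 and 0.17 ± 0.12 (SD, n = 5), and ERD against STD was -0.07 (limma adjusted p = 0.746). A probe this close to background has little room to read lower, so its difference from the brighter probe is not read as disagreement.

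Lrrtm1, a neurexin ligand of excitatory synapses, had lower means on both n-3 richer diets without passing. A_55_P2019784 read 3.85, 4.53, 3.35, 3.34 and 4.04 in ERD, 3.63, 3.52, 3.997, 3.79 and 4.08 in BLD, and 4.04, 4.43, 4.55, 3.98 and 4.96 in STD. The diets overlapped. ERD against STD was -0.57 ± 0.23 (SE, n = 5 and 5, limma adjusted p = 0.278) and BLD against STD was -0.59 ± 0.23 (adjusted p = 0.451). Within slides ERD against STD was 0.10, -0.69 and 0.06, so 2 of the 3 slides had the opposite sign, and within the 1 slide that held both, BLD against STD was 0.11. With slide as a fixed block the changes were -0.17 and -0.02.

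Lrrtm2, also a neurexin ligand, had both probes below 0 for ERD against STD. The brighter, A_55_P2084413, read 2.88, 4.004, 2.81, 2.94 and 2.90 in ERD, where 4 arrays lay below every BLD and STD array and ERD array 2 lay above them all. BLD arrays ran from 3.18 to 3.83 and STD arrays from 3.19 to 3.75. The change was -0.41 ± 0.21 (SE, limma adjusted p = 0.386). In the ratios as deposited this probe's mean was 6.17 in ERD and 5.89 in STD, the opposite order. Within slides 4, 5 and 7 ERD against STD was 0.40, -0.38 and -0.49. With Cy5 alone it was -0.15, and the reference channel alone moved by -0.19. The dimmer, A_55_P2084418, gave -0.30 (adjusted p = 0.41), with 1 BLD value left out as an outlier spot and Cy5 well above background on 3, 3 and 5 arrays of ERD, BLD and STD.

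Lrrtm3, a further member of the family, had its lowest mean in ERD by both probes, again without passing. A_51_P488180 read 1.65, 2.95, 1.80, 2.21 and 3.21 in ERD, 2.49, 2.82, 3.22, 3.73 and 3.50 in BLD, and 2.63, 3.24, 3.36, 2.94 and 3.08 in STD. A_66_P134355 read -0.02, 0.58, 0.67, 0.37 and 0.65 in ERD, 1.74, 0.76, 0.66, 1.42 and 0.85 in BLD, and 1.01, 1.86, 0.76, 1.09 and 0.68 in STD. The lowest 3 ERD arrays of the first probe lay below every other array, and all ERD arrays of the second lay below STD by a margin as small as that between 0.67 and 0.68. ERD against STD was -0.69 ± 0.30 and -0.63 ± 0.24 (SE, n = 5 and 5, limma adjusted p = 0.309 and 0.261), and ERD against BLD was -0.79 and -0.63 (adjusted p = 0.415 for both). The reference was not well above background on any array for either probe. With Cy5 alone ERD against STD was -0.21 and -0.31, and ERD against BLD was -0.07 and -0.21. In the ratios as deposited, the ERD and BLD means were 6.84 and 6.86 for the first probe and 3.29 and 4.13 for the second. Within slide 7 the first probe's ERD against STD difference was 0.27, the opposite sign.

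**Figure D3:**
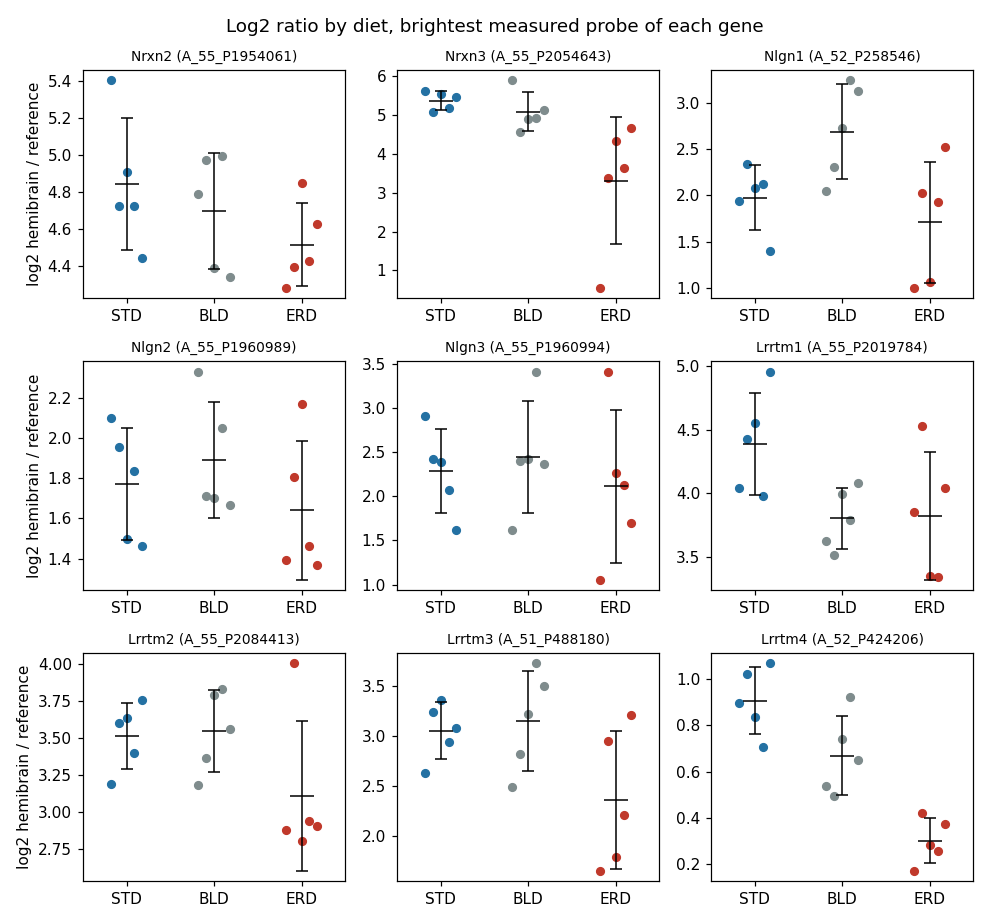
Log2 ratio of hemibrain to the reference pool for the brightest measured probe of each of the 9 genes, 1 point per array, with the mean and SD (bars) of the 5 arrays of each diet. Axes differ between panels and do not start at 0. For Lrrtm4 the 5 ERD arrays (0.17 to 0.42) lie below all others, and in the Nrxn3 panel ERD array 1 sits at 0.55.

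Across arrays the members varied most on the enriched diet. The median SD of member probes was 0.44 in ERD, 0.35 in BLD and 0.30 in STD, beside 0.27, 0.25 and 0.19 over all probes, and 10 of 18 members were widest in ERD. ERD had the lowest mean of the 3 diets for 13 of 18 probes, and BLD lay between the others for 8. These counts and that of the widest members were not made over all probes, so they are not read as particular to the members. The mean of the 9 genes, each centred on its own mean over arrays, was -0.38 ± 0.43 in ERD (range -1.05 to 0.07), 0.18 ± 0.21 in BLD and 0.20 ± 0.10 in STD (SD, n = 5). ERD array 1 set the low end, and without it the ERD mean was -0.21 ± 0.24 (SD, n = 4), with each gene still centred over all 15 arrays.

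**Figure D4:**
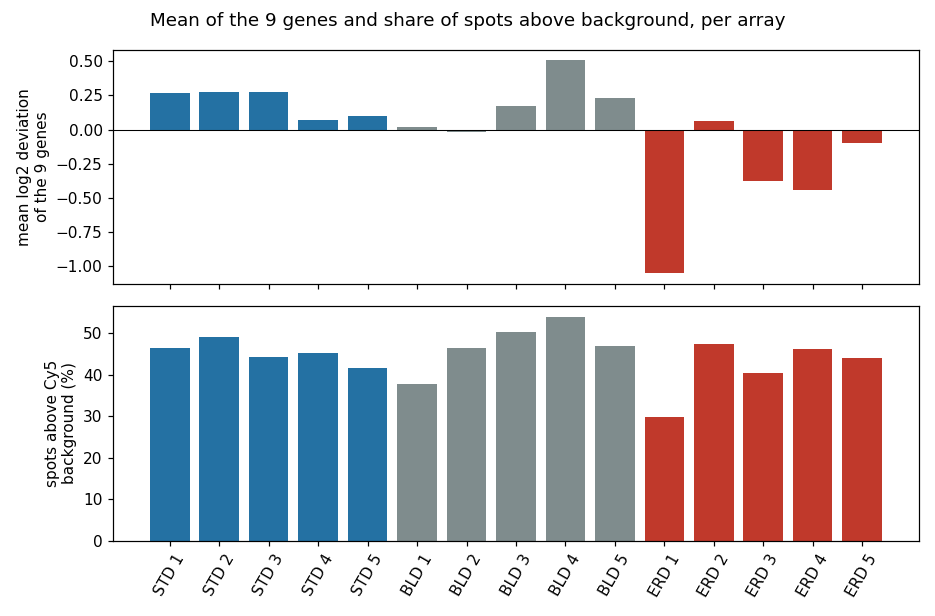
Upper panel, mean log2 deviation of the 9 genes per array, and lower panel, percent of spots well above background in Cy5 on the same array, with 5 arrays per diet in colour. ERD array 1 is lowest in both, at -1.05 and 29.9%.

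Mean levels of excitatory neuron markers were also lowest in ERD. All 6 markers listed were measured, 0 were called in any comparison, and their mean deviation ranged from -1.15 to 0.13 in ERD, 0.04 to 0.51 in BLD and -0.01 to 0.39 in STD. Of the 6, 4 were well above background on all 5 ERD arrays and 6 on all BLD and all STD arrays. The 10 general neuron markers, all measured, ranged from -0.84 to -0.06 in ERD, -0.22 to 0.52 in BLD and -0.14 to 0.40 in STD. ERD array 1 was lowest in both lists. Their part in the members' values was not tested, and in whole hemibrain fewer cells of a type and less RNA per cell cannot be told apart. Inhibitory neuron markers averaged -0.12, 0.11 and 0.01 in ERD, BLD and STD, and astrocyte markers 0.03, 0.05 and -0.08. Oligodendrocyte markers averaged -0.09, -0.01 and 0.11, their precursors -0.06, 0.18 and -0.11, and microglia -0.13, 0.05 and 0.09. Endothelial and blood markers averaged -0.05, 0.00 and 0.06, and choroid plexus and ependyma markers -0.01, -0.02 and 0.02.

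Over the 15 arrays, 32 of 36 pairs of the 9 genes had a Pearson r above 0, with a median of 0.40. After centring on diet means 25 pairs stayed above 0 with a median of 0.32, and without ERD array 1 there were 26 with a median of 0.26. The closest pair was Nlgn1 with Lrrtm3 (r = 0.83, and 0.77 without ERD array 1), for both of which the reference channel was not well above background on any array. These values are a description of 15 arrays of 1 design against 1 reference pool, some of which share a slide, and which differ in their share of spots above background. Pairs of other genes were not counted in this way, so the values are not read as particular to the members. Outside the members, the genes whose ratios most resembled the 9-gene mean among 17411 probes were Kcnma1 (r = 0.94), Luzp2 (0.94), Scn3a (0.94), Kcnn2 (0.93) and Maob (0.91), over 15 arrays. Without ERD array 1 their r was 0.86, 0.89, 0.86, 0.84 and 0.81.

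Partner genes of these adhesion molecules were taken from 6 lists with 110 entries, 97 of them measured, and read by the brightest probe of each. By limma 0 were called in any comparison. For ERD against STD 73 of 97 lay below 0 with a median of -0.18, and 15 had an unadjusted p under 0.05, 14 of them lower. Over all probes 48.3% lay below 0, 14.5% had such a p and 7.74% did so on the lower side, so the total of 15 is near the background. For ERD against BLD 72 lay below 0 with a median of -0.17 and 11 at an unadjusted p under 0.05, all lower, beside 58.7%, 10.6% and 8.04% (lower) of all probes, again a total near the background. For BLD against STD 50 lay below 0 with a median of -0.01, and 9 had an unadjusted p under 0.05, 5 lower and 4 higher, beside 40.1% below 0, 10.3% with such a p and 2.91% lower over all probes.

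By list, all 15 postsynaptic scaffold genes lay below 0 for ERD against STD (median -0.21), with Dlgap2 at -1.02 and Dlg2 at -0.93. Presynaptic partners of neurexins had 8 of 9 below 0 (median -0.20), with Lin7b at -0.56 and the active zone gene Rims1 at -0.57. Other neurexin ligands had 12 of 15 below 0 (median -0.29), with the secreted C1ql3 at -1.09 and the latrophilin Adgrl1 at -0.99. Among other synaptic organisers 26 of 40 lay below 0 (median -0.13), with Adgrl3 at -0.89 and Cadm2 at -1.09. Neuroligin regulators had 5 of 7 below 0 (median -0.14), with Grin2a at -0.94 and Snx27 at -0.43. Regulators of neurexin splicing had 7 of 11 below 0 (median -0.18), with Celf4 at -0.63 and Ptbp2 at -0.39. The limma adjusted p-values of these 12 genes ran from 0.148 for Celf4 to 0.32 for Dlg2, so none passed.

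The genes with the lowest unadjusted p in each list were also read for the other comparisons, beginning with BLD against STD. Khdrbs3, a splicing regulator of neurexins, was -1.26 and Ptbp1 0.31. The secreted neurexin ligand Cbln2 was 1.71 and Clstn3 -0.68. The vesicle calcium sensor Syt1 was -1.05, the scaffold gene Dlgap3 was -0.27, Grin2a was -0.70 and the protease gene Adam10 0.26, and Ephb2 was 0.53 and Ptprs -0.48. None of these passed (limma adjusted p from 0.404 for Khdrbs3 to 0.713 for Dlgap3). For ERD against BLD they were Slitrk1 at -1.35, Nptx2 at -0.62, Dlg2 at -1.29, Dlgap2 at -0.77, C1ql3 at -1.02, Cbln4 at -0.41, Lin7b at -0.38, Adam10 at -0.39, Snx27 at -0.32, Ptbp2 at -0.22 and Rbfox2 at -0.83, with limma adjusted p from 0.339 for Slitrk1 to 0.607 for Rbfox2.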

How the data were processed

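The deposited files are 2-colour scanner output of 15 arrays with spot intensities in Cy5 and Cy3, made by the authors with Agilent's Feature Extraction software, version 11.5.1.1 by its headers and 10.7 per the submitters' processing notes. The authors' deposited log10 ratios of processed signals were used as an alternative, and the deposited value table holds the same ratios. Median intensities were background-corrected (normexp, offset 50) and loess-normalised within arrays, and the log2 ratio of Cy5 to Cy3 was averaged per probe with limma 3.58.1 in R 4.3.3. Outlier spots (0.574%) were left out. A probe was tested if Cy5 was called well above background on 5 or more arrays and 8 or more values remained, and 1 model covered all 15 arrays, with 2-sided p-values adjusted by Benjamini-Hochberg over 26348 probes and a threshold of 0.05. Changes of dim probes are understated on this offset scale.

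Gene names came from RefSeq identifiers through a RefSeq table, and start windows are RefSeq's for GRCm38.p6. The array design names another build, so no coordinate was taken from the files. Where a gene has several probes, all are given. Named genes are the 9 members with every probe, for each partner list and comparison the 2 of lowest unadjusted p where none was called, and the 5 genes whose profile was most like the members' mean. Some genes that this rule takes from the partner lists are not reported here. Steps were tested on simulated data. Members and lists were chosen with earlier results of these data known. Alternatives covered background, normalisation, channel, filter, probes per gene, slide, scan day, array quality and leaving out each array.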

Additional observations from a re-analysis of the deposited data

Results flagged for a closer look

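Within diets of 5 arrays (4 where a value was left out), each probe's highest and lowest array was set against the gap to its neighbour, in 54 groups, and 2 stood apart by Dixon's criterion, where chance alone marks about 1 in 20. Nrxn3 A_55_P2054640 read 0.40 on ERD array 1, below the next ERD array at 1.63. Lrrtm2 A_55_P2084413 read 4.004 on ERD array 2, above the next ERD array at 2.94. ERD array 1 also had the fewest spots above background, and its part in the Nrxn3 value was not tested.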

How the results depend on the processing

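No paired analysis was possible because replicate numbers were given in accession order and pair no arrays. Slides that hold several diets were used as a block and for within-slide values instead. Over 26348 probes, ERD against STD called 55 (26 higher, 29 lower). The count was 0 with median centring, with the Cy3 reference alone and without the 3 least correlated arrays, 1 with slide as a fixed block, 8 with scan day, 25 with only the 2 diets compared, 36 with probes above background on all 15 arrays and 36 with the mean of probes per symbol. It was 118 with slide as a random block, 107 with the background covariate and 154 with array weights. With no background subtraction the split was 16 higher and 40 lower. The 1 member call became 0 with processed signals, median centring, Cy5 alone, Cy3 alone, the filter on all 15 arrays, the mean per symbol, 2 diets only, slide as a fixed block, scan day, without the 3 least correlated arrays and with a trended, robust variance. The members' median moved from -0.31 to -0.56 with processed signals, -0.13 with Cy5 alone and 0.031 with Cy3 alone.

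BLD against STD called 2 probes, 1 with offset 1, no background subtraction, processed signals, median centring, 2 diets only or scan day, 0 with slide as a fixed block, 5 with Cy3 alone or no filter, 6 with the filter on all 15 arrays and 15 with array weights. Its members' median was -0.25 with offset 1, -0.18 with no background subtraction and -0.29 with processed signals. ERD against BLD called 0, and 1 with 2 diets only or slide as a fixed block. Its members' median of -0.24 was -0.063 with offset 1, -0.017 with processed signals, -0.0090 with Cy5 alone, -0.0088 with Cy3 alone and -0.79 within slide 3. The F test called 12, and 1 with offset 1, processed signals, median centring, slide as a fixed block or without the 3 least correlated arrays, 2 with no background subtraction, 0 with Cy3 alone and 3 with scan day. It called 26 with Cy5 alone, 42 with slide as a random block, 48 with array weights, 44 with the background covariate and 27 with a trended, robust variance. Probe pairs with a permutation p under 0.05 numbered 10, and 3 with processed signals.

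Leaving out 1 array at a time gave 5 to 199 calls for ERD against STD, 1 to 12 for BLD against STD, 0 to 1 for ERD against BLD, 1 to 23 in the F test, 6 to 13 probe pairs and 0 to 1 member calls for ERD against STD. The members' median then ran from -0.36 to -0.26, -0.06 to 0.08 and -0.34 to -0.16 in the 3 comparisons. The called Lrrtm4 value kept its sign in every setting that used the hemibrain channel, and was 0.20 in the reference channel alone. All member values were also read under the other settings that used the hemibrain channel. Of these, 31 of 372 changed sign for ERD against STD, 47 of 336 for BLD against STD and 47 of 371 for ERD against BLD. The cause was not tested. Aquantile scaling leaves these ratios as they are by construction. Mean pixel intensities in place of medians were not run. Cy5 signal over background limits the dim Nrxn3, Lrrtm2, Lrrtm3 and Lrrtm4 probes.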
